A study of Homo sapiens with 3 samples.

Results

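The map described here is the dimethyl sulfate accessibility of human 28S ribosomal RNA in cells that received the solvent DMSO. Its members are all adenosines (A) and cytidines (C) of the 5070 nt RNA that carry a value in the DMSO library, which are 2220 of 2492, and 2284 positions have a value in any of the 3 libraries of the series. The other libraries, from cells given 10 µM cycloheximide or 10 µM of the probe RiboBright, are not compared here. The DMSO cells received an equal volume of the solvent for 30 min. The cells were HEK293, a line derived from human embryonic kidney, and the growth protocol names HEK293T/17, one of its sublines, which expresses large T antigen of SV40. The library had no replicate, so every value below describes 1 library, with no test and no p-value.

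The 28S rRNA is the long RNA of the large ribosomal subunit and forms the peptidyl transferase centre, where amino acids are joined. Its conserved core folds into short helices and loops packed with ribosomal proteins, and expansion segments, which are long and rich in G and C in mammals, protrude from that core. Dimethyl sulfate adds a methyl group to the pairing face of A and C when that face is free, and the reverse transcriptase used here, TGIRT-III, places a wrong base opposite the methylated one. The mutation signal at a nucleotide is therefore a reading of how exposed its pairing face was. A base that pairs, or whose pairing face is covered by protein, gives little signal. Positions are counted from the 5′ end of 28S rRNA, and T in a printed sequence stands for U in the RNA.

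The 10 adenosines with the highest signal are shown first, because the range of the map rests on them. The measured adenosine is the capital letter in the middle of 21 nt of 28S rRNA.
A1322: acccgtcttgAaacacggacc
A1964: tgatatagacAgcaggacggt
A4523: agggaacgtgAgctgggttta
A3506: cggcggcggcAggcggcggag
A2676: tcgccccgagAgaggggcccg
A2207: ccccccccccAcgcctcctcc
A4424: aagcgttcatAgcgacgtcgc
A3905: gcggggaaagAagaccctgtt
A1000: cccggcgcccAcccccgcggg
A4244: aggcgagctcAgggaggacag

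The 10 cytidines with the highest signal are given in the same way, so that their flanking bases can be set beside those of the adenosines.
C883: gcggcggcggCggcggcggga
C3418: ggcggcggggCggggcggttc
C4252: tcagggaggaCagaaacctcc
C170: ggaagacccgCtccccggcgc
C3788: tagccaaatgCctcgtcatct
C3622: ctggtgcggaCcaggggaatc
C2172: gcggcggcggCgggggtgtgg
C1594: gcggtcctgaCgtgcaaatcg
C2154: cgtcggagggCggcggcggcg
C92: tcagtaacggCgagtgaacag

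A1322 had the highest signal of the map, 17.8, which was 134 times the adenosine median of 0.133. This base is known to carry a natural methyl group on its pairing face, as N1-methyladenosine, which is itself misread by reverse transcriptase. A library made without dimethyl sulfate is not analysed here, so the shares of natural and added methyl groups in this value cannot be told apart. A1964 followed at 8.97 and A4523 at 8.82. A3506 reached 7.13, in a stretch of repeated CGG within expansion segment ES27L, just beyond a stretch with almost no values. A2676 had 4.81, A2207 3.92 and A4424 3.77. A3905 had 3.06, A1000 3.04 and A4244 2.73. The first adenosine stood 1.98 times above the second.

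The cytidines had no such single peak, and the first, C883 at 5.95, stood 1.03 times above the second, C3418 at 5.77. C4252 had 5.74, C170 5.40 and C3788 5.06. C3622 reached 4.66, C2172 4.59 and C1594 4.39. C2154 had 3.84 and C92 3.45, so the 10 cytidines spanned a range of less than 2-fold. C883, C2172 and C2154 lie in repeats of CGG, as their sequences above show.

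Where a neighbour was measured, most of these peaks stood alone. Of the 10 adenosines, 7 had a measured A or C directly beside them, and in 6 of these every such neighbour was below a signal of 0.3. For the cytidines this held in 4 of 4, and the other 6 had no measured neighbour. A1322 is the plainest case, since its 3′ neighbour, also an adenosine, had 0.033. C3788 is another, with 0.014 at the cytidine that follows it. Over all measured positions 21.8% reached 0.3, so a neighbour below that signal is common in this map. A guanosine lay on at least 1 side of 8 of the 10 adenosines and 8 of the 10 cytidines. It preceded 4 adenosines and 7 cytidines, and followed 6 and 6. Of all measured adenosines, a guanosine preceded 37.8% and followed 34.7%. For all measured cytidines these shares were 32.3% and 35.9%. Since guanosine carries no value here, the extent of exposure around peaks beside a guanosine cannot be read from A and C.

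**Figure D1:**
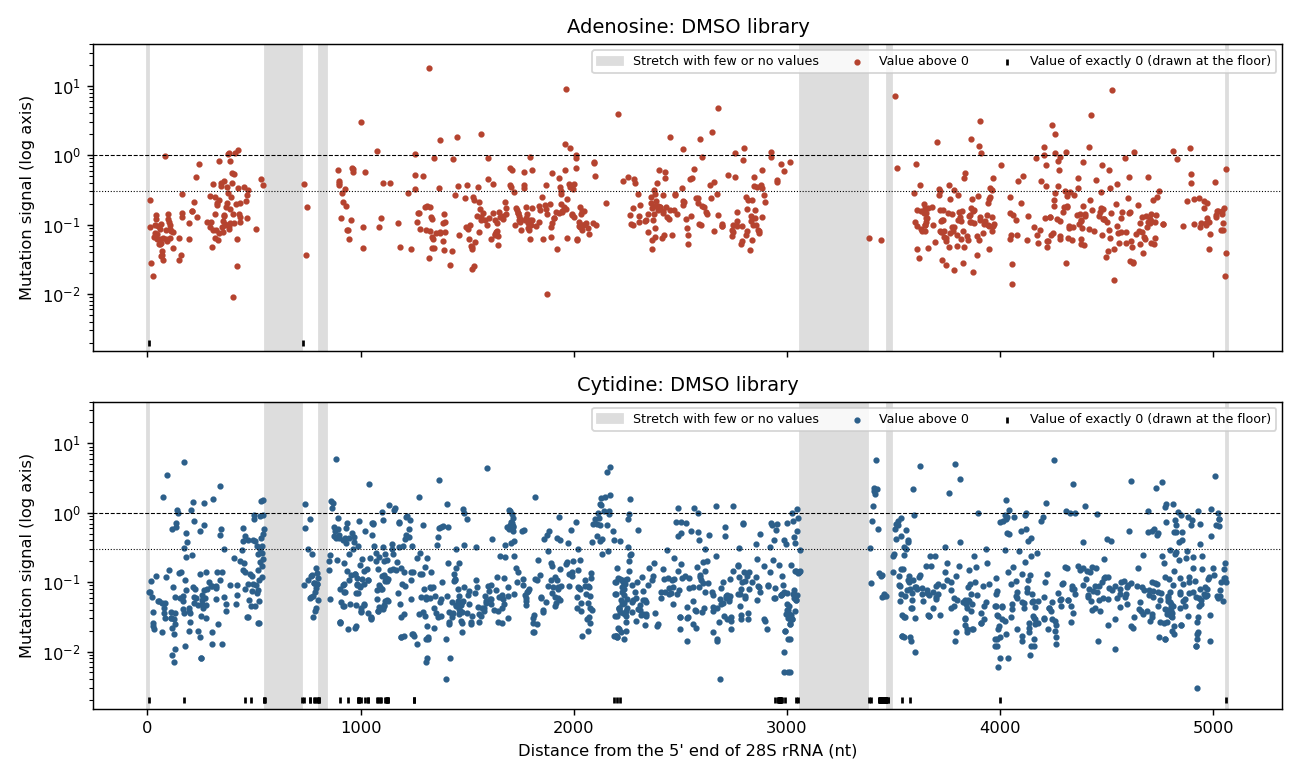
Signal of each adenosine (upper plot) and cytidine (lower plot) in the DMSO library against the distance from the 5′ end of 28S rRNA, on a log axis; the dotted line is at 0.3, the dashed line at 1, and grey marks stretches with few or no values. The highest adenosine reaches 17.8 and the highest cytidine 5.95, and 87 of the 89 values of exactly 0 are on cytidines.

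Values were present at 770 of 797 adenosines (96.6%) and at 1450 of 1695 cytidines (85.5%). The RNA itself is 69.4% G and C, with 1825 guanosines and 753 uridines that carry no value. The positions without a value were not scattered. They fell in 4 inner stretches, from 552 to 724, from 807 to 845, from 3063 to 3378 and from 3470 to 3493, and at both ends. The first of these held 80 unmeasured A and C, the second 20, the third 153 and the fourth 13 of its 15. Their share of G and C lay between 85.5% and 88.0%. The stretches lie in the expansion segments ES7L and ES27L, so the baseline map has no reading over much of these arms. In the block from 501 to 1000, 60.9% of A and C had a value, and in the block from 3001 to 3500 it was 34.6%. Where at least 80% of the 21 nt centred on a position were G or C, 76.2% of A and C were measured.

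Adenosines and cytidines differed in the shape of their distributions. Adenosines had a median of 0.133 with quartiles at 0.084 and 0.275, and cytidines a median of 0.077 with quartiles at 0.0362 and 0.208. The ratio of the adenosine to the cytidine value was 2.32 at the lower quartile, 1.73 at the median and 1.32 at the upper quartile. At the 90th percentile the order turned, with 0.614 for adenosines and 0.691 for cytidines, a ratio of 0.889. In all, 607 of the 770 adenosines (78.8%) were above the cytidine median. Averaged over ranks 2 to 10% below the maximum, the signal was 0.987 for adenosines and 0.994 for cytidines. Both are close to 1, as they would be on a scale set for each base by its own most reactive positions. The levels of A and C are therefore not on a scale known to be common. The limits used below are applied to both bases alike, and a difference between an A and a C at one limit may include a difference in scale.

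**Figure D2:**
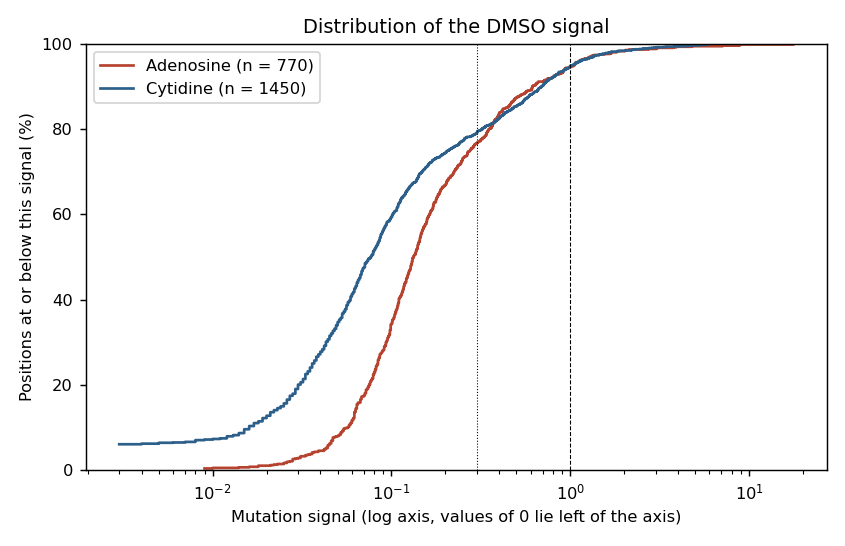
Share of adenosines and of cytidines at or below each signal on a log axis, with dotted and dashed lines at 0.3 and 1. The cytidine curve lies above the adenosine curve at low signal, with medians of 0.077 and 0.133, and both meet between these lines.

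The signal was concentrated in few positions. The top 10% of adenosines carried 54.2% of the summed adenosine signal, and the top 10% of cytidines 56.6% of the cytidine signal. The lower-ranked 50% carried 12.7% and 7.21%. A position is called accessible here at a signal of at least 0.3, high at 1 or more, and near zero at 0.02 or less. By these limits 180 adenosines (23.4%) and 305 cytidines (21%) were accessible, 485 positions or 21.8% in all. High values were found at 42 adenosines (5.45%) and 76 cytidines (5.24%), or 5.32% of all measured positions. At the low limit, 8 adenosines (1.04%) and 185 cytidines (12.8%) were near zero, 8.69% together. These shares are set by the limits, and the values run smoothly across them. The positions closest to the first limit were C755 at 0.3 and A4474 at 0.296. At the second they were C143 at 1.002 and C2583 at 0.999, and at the third C4259 at 0.02 and C2213 at 0.021.

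High cytidines had a larger share of guanosine neighbours than cytidines at large. A guanosine preceded 57.9% of the 76 high cytidines, against 32.3% of all measured cytidines, and followed 65.8%, against 35.9%. For adenosines the corresponding shares were 38.1% against 37.8% before and 40.5% against 34.7% after. Among high positions with a measured neighbour, 24 of 32 adenosines (75%) and 18 of 35 cytidines (51.4%) stood alone, with no accessible A or C directly beside them. The share that stood alone among all measured positions was not computed. Over all measured positions, 23.4% of adenosines and 21% of cytidines were accessible. Within 5 nt, 64.3% of high adenosines and 78.9% of high cytidines had another accessible position, and the shares over all measured positions were 55.2% and 60.1%.

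The low end of the map was made of cytidines. Exactly 0 was recorded at 89 positions, of which 87 were cytidines, and the adenosines were A10 and A732. The other near-zero adenosines were A402 at 0.009, A1873 at 0.01, A4056 at 0.014, A4533 at 0.016, A25 at 0.018 and A5056 at 0.018. Of the 89 zeros, 79 lay next to a cytidine and 46 had a cytidine on both sides. Of all measured cytidines, 17.0% had a cytidine on both sides. Among the 87 zeros on cytidines, 61 followed a cytidine and 63 preceded one. Among all 1450 measured cytidines these counts were 561 and 561. Many zeros lay beside the unmeasured stretches. Within 25 nt of an A or C without a value, 25.4% of measured positions were at 0, against 2.68% elsewhere. That zone held 33 of the zeros (37.1%) and 5.86% of the measured positions. Local G and C of at least 80% surrounded 73.0% of the zeros and 31.2% of measured positions. The read coverage of each position is not given, so a 0 from a well-read protected base and a 0 from few reads cannot be told apart.

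Runs of adjacent accessible bases were few. A run here is at least 3 neighbouring nucleotides that are all A or C and all at 0.3 or more. There were 18 such runs with 66 nucleotides, 22 adenosines and 44 cytidines, which is 13.6% of the accessible positions. The RNA offered 265 stretches of at least 3 adjacent measured A or C, of which 6.79% held a run. The other accessible positions were 315 single ones and 52 pairs. The longest runs are printed with 10 nt on each side, the accessible run in capitals, as the longest stretches of accessible bases read without a gap.
1709 to 1715: agacccgacgCACCCCCgccacgcagt
897 to 901: ggcgggaccgAAACCccccccgagt
2009 to 2012: aggagtgtgtAACAactcacctgc
4892 to 4895: tcgtcctgggAAACggggcgcggc
1103 to 1106: cgaccgctctCCCAcccctcctcc

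The run from 1709 to 1715 was the longest, with 7 nucleotides. Its signals from 5′ to 3′ were 0.723 at C1709, 0.613 at A1710, 0.951 at C1711, 0.659 at C1712, 0.841 at C1713, 0.627 at C1714 and 0.542 at C1715. Their mean was 0.708, and the values stayed within a range of less than 2-fold. Another run, from 1701 to 1704, lies just before it, with 0.377 at A1701, 1.046 at C1702, 0.661 at C1703 and 0.361 at C1704. With all accessible positions in capitals, the segment from 1691 to 1725 shows how closely they follow each other.
1691 to 1725: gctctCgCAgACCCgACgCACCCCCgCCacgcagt
In that segment 18 of 24 measured A and C were accessible. Cytidines next to cytidines had low medians over the RNA as a whole, and this stretch is an exception.

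The run from 897 to 901 was lower and even, with 0.37 at A897, 0.396 at A898, 0.42 at A899, 0.481 at C900 and 0.433 at C901. The run from 2009 to 2012 had a mean of 0.826, with 0.663 at A2009, 0.908 at A2010, 0.728 at C2011 and 1.003 at A2012. From 4892 to 4895 the signals were 1.283 at A4892, 0.528 at A4893, 0.399 at A4894 and 0.666 at C4895. From 1103 to 1106 they were 1.04 at C1103, 0.797 at C1104, 0.322 at C1105 and 0.398 at A1106. The runs from 1765 to 1768 and from 966 to 969 had means of 0.462 and 0.423. Among the runs of 3, the highest means were 1.3 from 1367 to 1369, where C1367 had 2.95, and 1.25 from 338 to 340, where C340 had 2.446. In both of these runs 1 cytidine at an edge carried most of the signal.

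Runs of low signal were made of cytidines alone. Requiring at least 5 adjacent A or C at 0.05 or less gave 7 runs with 39 nucleotides and 0 adenosines, among 69 stretches long enough to hold one. Over the whole map, 62 of 770 adenosines and 504 of 1450 cytidines were at 0.05 or less. Few adenosines thus met this shared limit at all. The 5 longest low runs are shown with the run in capitals.
4799 to 4806: ggcgggccgcCCCCCCCCtccacgcgcc
2966 to 2971: ggcgccgccgCCCCCCccacgcccgg
3432 to 3436: gcggttcgtcCCCCCgccctacccc
1248 to 1252: acgcgcgcgtCCCCCgaagaggggg
2987 to 2991: cccggggcacCCCCCtcgcggccct

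The 8 cytidines from 4799 to 4806 were low but not 0, between 0.02 and 0.048 with a mean of 0.0355. All 6 cytidines from 2966 to 2971 and all 5 from 3432 to 3436 were at exactly 0. The run from 1248 to 1252 had 0.018 at C1248, 0.017 at C1250 and 0 at C1249, C1251 and C1252. It forms most of the 5′ strand of the hairpin match from 1245 to 1265. The run from 2987 to 2991 lay between 0 and 0.02. The remaining runs, from 4920 to 4924 and from 3002 to 3006, had means of 0.015 and 0.0278.

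The flanking bases separated cytidines more than adenosines. By 3′ neighbour, cytidines had a median of 0.12 before guanosine (520 positions) and 0.049 before cytidine (561 positions), with 31.7% and 13.4% accessible. By 5′ neighbour, the cytidine medians were 0.101 after guanosine, 0.102 after uridine, 0.093 after adenosine and 0.047 after cytidine. Adenosines had medians of 0.165 before guanosine, 0.131 before cytidine, 0.126 before uridine and 0.106 before adenosine. The accessible share of adenosines was lowest beside uridine, at 14% after it and 12.9% before it.

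**Figure D3:**
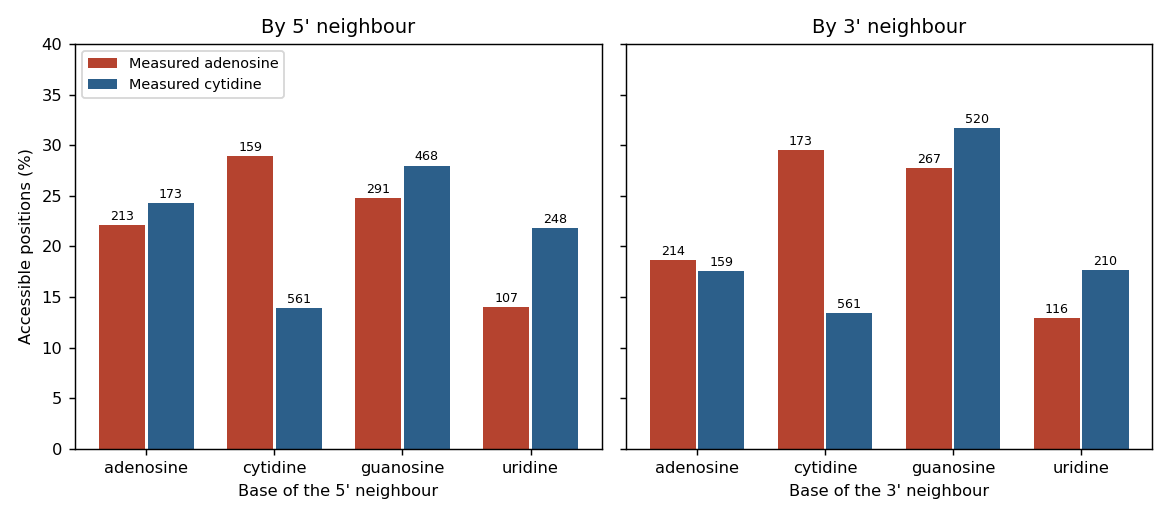
Share of measured adenosines and cytidines with a signal of at least 0.3, by the base on their 5′ side (left) and 3′ side (right), with the number of positions above each bar. Cytidines are at 31.7% before guanosine and 13.4% before cytidine, and adenosines at 12.9% before uridine.

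By both neighbours, the 3 highest cytidine contexts all ended in guanosine. GCG had a median of 0.208 over 208 positions with 41.8% accessible, ACG 0.191 over 57 and TCG 0.151 over 66. The 3 lowest were CCC with 0.033 over 247 positions and 9.72% accessible, GCC with 0.054 over 159 and CCT with 0.055 over 73. The GCG median was 6.30 times the CCC median, and 2.49 times where local G and C was at most 60%, with 19 and 17 positions. GCG positions made up 14.3% of measured cytidines and 42.1% of the high ones. CCC positions made up 17.0% of measured cytidines and 91 of the 185 near-zero ones.

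Among adenosines the highest contexts were CAC with a median of 0.212 over 42 positions and 45.2% accessible, CAG with 0.187 over 66 and AAG with 0.171 over 73. The lowest were TAC with 0.089 over 23, AAA with 0.099 over 51 and TAA with 0.1 over 39. The spread from the lowest to the highest of the 16 contexts was thus smaller for adenosines than for cytidines. The CAC value differed with local G and C. Up to 60% its median was 0.116 over 13 positions with 23.1% accessible, near the 23.4% of all measured adenosines. Above 60% the median was 0.364 over 29 positions with 55.2% accessible.

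The cytidine median was lower the longer the unbroken cytidine stretch around the position. Single cytidines had a median of 0.122, cytidines in pairs 0.068, in triplets 0.05 and in stretches of 4 or more 0.038. In the longest class 34.9% of 289 positions were near zero, against 3.13% of 575 single cytidines. In adenosine stretches the medians were 0.144, 0.128, 0.125 and 0.099, with only 28 positions in the longest class. Inside cytidine stretches of at least 3, the inner positions had a median of 0.033, the first 0.056 and the last 0.0595.

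Repeats of CGG stood at the other end. The letters GGCGG, searched on the RNA strand after the values had been seen, occur 80 times and hold 4.72% of all cytidines at their centre. Of these centres 59 were measured, with a median of 0.421, 54.2% accessible and 14 high. GCG cytidines outside GGCGG had a median of 0.14 over 149 positions, with 36.9% accessible. The segment around C883, the highest cytidine, is shown with accessible positions in capitals, which were 15 of 18 measured A and C.
863 to 903: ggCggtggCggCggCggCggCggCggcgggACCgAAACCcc
The runs from 893 to 895 and from 897 to 901 follow the repeat directly, so accessible positions continue on its 3′ side. This segment begins close to the 3′ end of an unmeasured stretch, and its place in the folded RNA was not tested.

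Neighbouring positions had similar signals over short distances. Spearman's rank correlation across sites between adjacent cytidines was 0.506 over 559 pairs, and between adjacent adenosines 0.411 over 213. It was 0.302 for a cytidine followed by an adenosine and 0.225 for the reverse order. At 2 nt the values were 0.369 for cytidines and 0.248 for adenosines, and at 3 nt 0.196 and 0.206. From 7 to 10 nt, the cytidine values lay between 0.109 and 0.164 and the adenosine values between 0.00912 and 0.124. These correlations describe sites of 1 RNA in 1 library, which share its reads and its base composition.

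The level varied along the RNA, here as the percentile of each position within its own base. Medians were taken in windows of 100 nt with at least 10 measured A or C, which gave 47 windows. The middle 50% of window medians lay between 42.2 and 59.5, and the full range was from 3 to 84.7. The highest was the window from 2101 to 2200 with a median percentile of 84.7, where 60% of 35 measured positions were accessible and 9 were high. Its 33 cytidines had a median of 0.547, and it contains C2154 and C2172. The window from 801 to 900 followed with 84.1 and 62.5% accessible, and it holds C883 and 20 unmeasured positions. The window from 501 to 600 had 76.6, with 29 of its 63 A and C unmeasured. Without positions near unmeasured ones, or ranked by accessible share, the window from 801 was the highest.

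The lowest window was that from 3401 to 3500, between unmeasured stretches of ES27L, with a median percentile of 3. In it 23 of 40 measured positions were at exactly 0, while 6 were high, including C3418. High and zero values thus lay within the same 100 nt. The segment around the run of zeros there is shown with the positions at exactly 0 in capitals, 17 of 26 measured.
3422 to 3461: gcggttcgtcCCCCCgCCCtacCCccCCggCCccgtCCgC
The next lowest windows were the first and second of the RNA, at 25.4 and 28.4. The first was the lowest when windows were ranked by accessible share or over positions listed in all 3 libraries. The 5′ part of 28S rRNA pairs with the separate 5.8S rRNA in the ribosome, as known background. Of the 52 measured positions in the first 100 nt, 3 were accessible (5.77%), and C92 was 1 of 2 high ones.

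Every window held an accessible position, and 3 had no high one. In blocks of 500 nt, the accessible share was highest from 501 to 1000 at 34.0% and lowest from 3501 to 4000 at 15.4%. The near-zero share was highest from 3001 to 3500 at 35.2% and lowest from 1501 to 2000 at 1.22%.

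**Figure D4:**
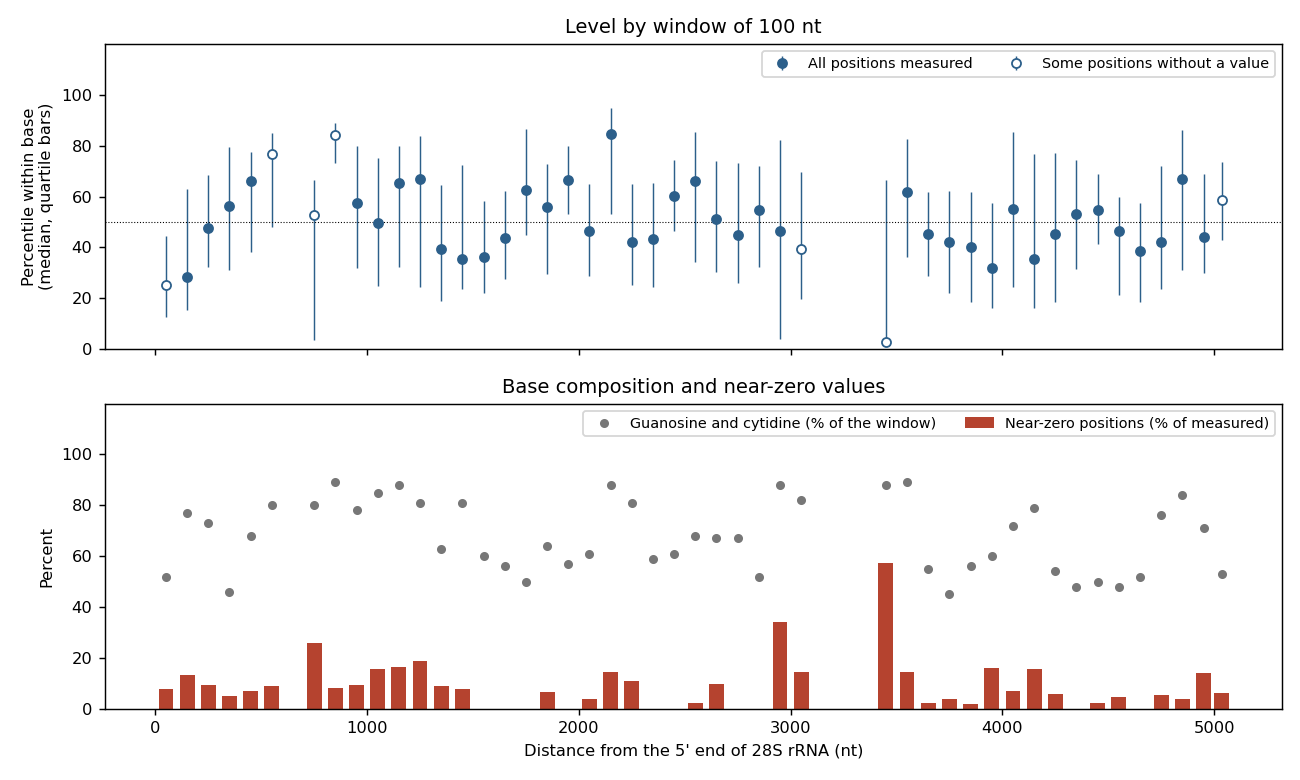
Upper plot: median percentile within base (points) with quartiles (bars) in windows of 100 nt, open where some A or C had no value. Lower plot: share of G and C (points) and of near-zero positions (bars) in each window. The window medians run from 3 to 84.7, and the highest bar, 57.5%, belongs to the window with the lowest median.

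Base composition moved with both ends of the scale. Across the 47 windows, Spearman's correlation of the share of G and C was 0.719 with the near-zero share, 0.422 with the accessible share and 0.177 with the median percentile. By the G and C content of the surrounding 21 nt, the near-zero share of cytidines was 3.29% below 50% and 22.7% at 90% or more. The accessible share of cytidines over the same range was 11.8% and 24.9%. For adenosines it was 18.0% at under 50% and 58.8% at 90% or more, the latter from 17 positions. Adenosines surrounded by G and C were thus often accessible by the limit used here, A3506, A2207 and A1000 among them. Cytidines there were spread to both extremes. A library made without dimethyl sulfate is not analysed here, so how much of these signals reflects exposure was not tested.

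Hairpins were then read from the sequence alone, as perfect stems of at least 6 pairs closing a loop of 4 to 8 nt, with G-U pairs allowed. This found 67 hairpins, which are matches in the letters and not shown structures. In their loops 24 of 75 adenosines were accessible (32.0%), against 5 of 55 in their stems (9.09%), a difference of 22.9 percentage points. Of adenosines in neither part 23.6% were accessible, and of all measured adenosines 23.4%. The loop minus stem difference for adenosines was 47.4 with stems of at least 8 pairs, from only 29 adenosines in 22 hairpins. Cytidines did not separate this way, with 19 of 88 accessible in loops (21.6%) and 66 of 252 in stems (26.2%). Of cytidines in neither part 19.8% were accessible, and of all measured cytidines 21%. The cytidine result depended on the stems that were allowed. In the 15 hairpins without a G-U pair, 5 of 12 loop cytidines were accessible (41.7%) against 3 of 57 in stems (5.26%). In the 52 with at least 1 G-U pair the shares were 18.4% in loops and 32.3% in stems. This division was made after the values had been seen. With a search for Watson-Crick stems alone, which found 23 hairpins, the cytidine shares were 9 of 18 (50%) in loops and 9 of 82 (11%) in stems. In that search the adenosines no longer separated, with 8 of 26 (30.8%) in loops and 5 of 20 (25%) in stems, a difference of 5.77 percentage points.

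Examples of the hairpins show where the signal lay, with the loop in capitals and the stem in lower case.
1245 to 1265: cgtcccccGAAGAgggggacg
4245 to 4263: gggaggACAGAAAcctccc
3892 to 3917: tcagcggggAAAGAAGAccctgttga
2479 to 2499: gggcgatgGCCTCcgttgccc
4129 to 4155: gcgcccggccgCGCGCcggccgggcgc
4014 to 4033: gcggggtcCGCCggccctgc

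In the hairpin from 1245 to 1265, all 3 loop adenosines were accessible, with 0.322 at A1254, 0.525 at A1255 and 1.045 at A1257. The 8 measured stem positions had a median of 0.015 and a maximum of 0.14. The hairpin from 4245 to 4263, named here because its loop holds C4252, had 5.738 at C4252, 1.067 at A4255 and 2.034 at A4257. Its other loop bases had 0.223 at A4251, 0.188 at A4253 and 0.289 at A4256, and no stem position exceeded 0.075. Loop and stem did not overlap in either hairpin.

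The loop of 8 nt from 3901 to 3908 alternated, with 1.35 at A3902, 3.06 at A3905 and 1.075 at A3908, but 0.06 at A3901, 0.13 at A3903 and 0.115 at A3906. Its stem had a median of 0.065 and a maximum of 0.991. In the hairpin from 2479 to 2499, C2488 had 1.166 and C2489 0.468, while C2491, next to the stem, had 0.147. The longest stem, of 11 pairs from 4129 to 4155, had a stem median of 0.033 and a maximum of 0.39. Its loop had 0.127 at C4140, 0.428 at C4142 and 0.24 at C4144, so loop and stem values overlapped.

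Other sequence matches did not show this division. In the match from 4014 to 4033 all 6 measured stem positions were accessible, with a median of 0.842, and the loop had 0.293 at C4022, 0.028 at C4024 and 0.018 at C4025. The accessible run from 4028 to 4030 lies in the 3′ strand of that match. The match from 4848 to 4872 had a loop median of 0.094 and a stem median of 0.22, and that from 2519 to 2542 had 0.038 and 0.099. In these 3 matches the loop median was below the stem median. The match from 2884 to 2909 had no accessible position in loop or stem, but its loop median of 0.214 was above its stem median of 0.09.

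Loops of 4 nt of the forms GNAA and GNGA belong to the GNRA family, in which the first and last bases are known to face each other and the inner bases stack. Stems of at least 4 pairs gave 11 such loops, of which 9 had a value. Those with a value are shown with the loop in capitals, since the place within the loop is the quantity compared.
1283 to 1302: ggtcggcgGCGAcgtcggct
2554 to 2573: tgggcgccGCGAggcgtcca
1555 to 1572: gccagagGAAActctggt
1128 to 1141: ccccgGCGAcgggg
2575 to 2586: tgcgGTAAcgcg
2758 to 2769: gggtGTAAatct
3721 to 3732: tgaaGAAAttca
3996 to 4007: ccccGCGAgggg
4318 to 4329: ccgtGAAAgcgg

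The last adenosine of the loop had a median of 0.396 over 9 loops, from 0.117 to 2.022, and was accessible in 5. These 5 were the 4 GCGA loops with a value and the GAAA loop from 1555 to 1572. In the other GTAA and GAAA loops the last adenosine had 0.238, 0.151, 0.117 and 0.291. Of all measured adenosines 23.4% were accessible. With stems of at least 5 pairs the last adenosine was accessible in 4 of 4 loops. The third base had a median of 0.094 over 5 loops, none of them GCGA, where that base is a guanosine. The second base had 0.128 over 7, which pools 4 cytidines with adenosines. In all 5 loops with both values, the last adenosine was higher than the third base. The clearest case was the GAAA loop from 1555 to 1572, with 0.128 at A1563, 0.115 at A1564 and 2.022 at A1565. In the GAAA loop from 4318 to 4329 the same places had 0.097 at A4323, 0.089 at A4324 and 0.291 at A4325. The second base of the 4 GCGA loops with a value was accessible in 3, with 1.189 at C2563, 1.308 at C1134 and 0.733 at C4001, and was low at C1292 with 0.037. Each of these cytidines lies between guanosines. In that context 41.8% of 208 cytidines were accessible over the whole RNA, and of all measured cytidines 21%.

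A folding model adds pairing with distant letters. RNAplfold, which averages the pairing probability over windows of 200 nt with pairs up to 150 nt apart, was run on the sequence alone. Cytidines with a predicted probability of being unpaired of at least 0.9 had a median of 0.367, and 21 of 41 were accessible (51.2%). Cytidines at 0.1 or less had a median of 0.0535, and 45 of 430 were accessible (10.5%). Of all measured cytidines 21% were accessible. For adenosines the medians were 0.133 and 0.116, with 61 of 241 (25.3%) and 1 of 23 (4.35%) accessible. Between these limits 23.3% of 506 adenosines were accessible, and of all measured adenosines 23.4%. The adenosine difference thus rested on the 23 positions predicted to be paired. Most adenosines predicted to be unpaired were therefore not accessible by the limit of 0.3. Across sites, Spearman's correlation between the predicted probability and the signal was 0.308 for 1450 cytidines and 0.0759 for 770 adenosines. When accessible and near-zero positions were set against each other, the model ranked 75.6% of the cytidine pairs and 61.9% of the adenosine pairs in the order of the signal, the latter with 8 near-zero adenosines.

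**Figure D5:**
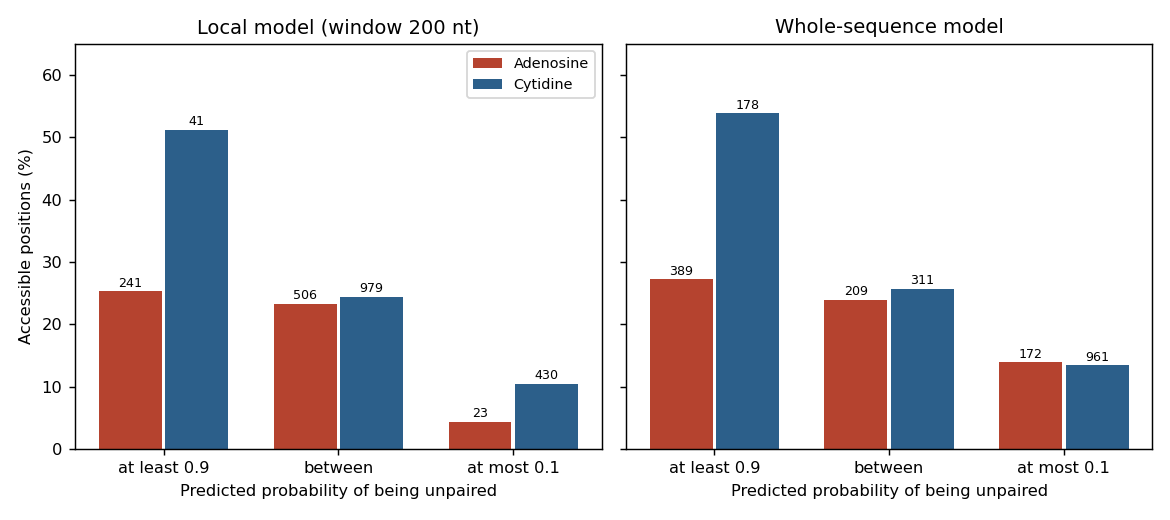
Share of accessible adenosines and cytidines by predicted probability of being unpaired, from the local model (left) and the model of the whole sequence (right), with the number of positions above each bar. Cytidines run from 51.2% to 10.5% in the local model and from 53.9% to 13.4% in the other.

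The model that folds the whole sequence at once gave 53.9% and 13.4% accessible cytidines in these classes, and 27.2% and 14% accessible adenosines. The local model with windows of 100 nt and pairs up to 70 nt apart divided cytidines less, at 23.4% and 12.9% accessible, a difference of 10.5 percentage points against 40.8 in the main setting. With 1 limit of 0.5 for both classes, the difference was 18.8. The context of a cytidine and its predicted pairing were not the same division. Among GCG cytidines, 64.3% of the 56 with a predicted probability of at least 0.5 were accessible, and 33.6% of the 152 below it. Among CCC cytidines the shares were 19.6% of 51 and 7.14% of 196. The share of CCC cytidines predicted to be unpaired thus lay below that of GCG cytidines predicted to be paired.

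Some high positions lay where the model places a pair. The local model gave 453 measured positions a probability of being unpaired of 0.1 or less, and 11 of these were among the 118 high positions of the 2220 measured. The model of the whole sequence placed 1133 positions in that class, of which 35 were high, 31 cytidines and 4 adenosines. Both models agreed on 10 high positions. In the model of the whole sequence the class held A4523, C3418, C3788, C3622 and C92 of the 10 highest of each base. Their predicted probabilities were 0.049, 0.0001, 0.0209, 0.0024 and 0.0024. The 11 high positions of the local model were all cytidines. The highest of these were C3812 with a signal of 3.039, C4613 with 2.851 and C1039 with 2.574. The others were C141, C216, C741, C2123, C2749, C3403, C4041 and C4349, from 1.008 to 1.44, of which C741 was predicted to be unpaired by the model of the whole sequence. Neither model contains proteins, tRNA or the other rRNAs.

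Known functional sites were spread over the whole range. The sites with a name are shown with the measured base in capitals, to place them in the RNA.
A4220: tcaaacggtaAcgcaggtgtc
C3782: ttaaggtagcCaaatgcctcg
C4447: tttgatccttCgatgtcggct
C4341: gcctcacgatCcttctgacct
A4397: cacagggataActggcttgtg
C4398: acagggataaCtggcttgtgg
A4548: gtcgtgagacAggttagtttt
A4605: gctcagtacgAgaggaaccgc

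A4220, which is known to be N6-methyladenosine, had 0.047 and ranked 712 of 770 adenosines. The cytidines known to be 5-methylcytidine had 0.045 at C3782 (rank 994 of 1450) and 0.159 at C4447 (rank 414). Of the 4 modified bases listed, A1322 alone was accessible. C4341, in the E site through which spent tRNA leaves, had 2.564 and ranked 17 of 1450 cytidines, so this base was already near the top of the map in cells given solvent alone.

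In the peptidyl transferase centre the adjacent bases A4397 and C4398 had 0.142 (rank 359 of adenosines) and 1.267 (rank 49 of cytidines). A4548, in the same centre, had 0.389 and ranked 134. A4605, the adenosine of the sarcin-ricin loop that the toxin ricin cleaves from its sugar, had 0.48 and ranked 104 of 770. The A and C ranks refer to their own base and are not compared with each other.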

How the data were processed

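Dimethyl sulfate mutational profiling of 28S rRNA was deposited as 1 signal per nucleotide for each of 3 libraries, and the DMSO library is described here. Per the labels' protocols, TRIzol was used for extraction, TGIRT-III with random hexamers for reverse transcription, and NEBNext Ultra II for the libraries. The signal values were made by the authors, have 3 decimals and exist only on A and C. The submitters' processing notes name cutadapt, Bowtie2 and hg38, with no version or role. For the mutation counter, normalization, coverage minimum, background subtraction and dimethyl sulfate dose, nothing is given in the sources used here. The values carry no read counts, so the depth is unknown and no counting interval is given. The deposited signal was used unchanged: a missing value counted as not measured, and 0 was kept as a value.

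The base and position come from the position name in the table. In the RefSeq gene table of GRCh38.p14 the gene RNA28SN5 has the same length of 5070 nt, on a sequence without an assigned chromosome, from 113348 to 118417. Other near-identical copies lie on chromosomes 21 and 22. Reads cannot be assigned to 1 copy, and the sequence was not matched to a genome.

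Medians, shares, runs, contexts and hairpins were computed in Python 3.11.15 with numpy 2.4.6, pandas 2.3.3 and scipy 1.17.1, plotted with matplotlib 3.10.9, and folded with ViennaRNA 2.7.2. The functions were tested on simulated data with planted runs, contexts and hairpins. The positions and lists were chosen with earlier results of these data known. Those named are the 10 highest A and C, the 10 longest accessible and 5 longest low runs, the 3 highest and lowest contexts and windows, the 8 hairpins with the longest stems and at least 3 measured loop bases, all GNAA and GNGA loops, and 9 functional sites. Any other is marked as chosen after its value was seen or illustrates a limit, a class or a run. Alternatives covered thresholds, the positions used, window sizes, stem rules and the folding model.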

Additional observations from a re-analysis of the deposited data

How the results depend on the processing

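Of 118 alternative values of 26 results, 85 stayed close to the main value, 31 moved and 2 changed sign, and with 1 library none has a test. Close means within 1.5 times for counts and ratios, within 0.1 for correlations, and within the 95% interval over positions for shares, differences and medians. Limits set the counts. At 0.2 and 0.5 in place of 0.3, accessible adenosines were 33.1% and 12.6%, and accessible cytidines 25.6% and 14.6%. At 0.7 and 2 in place of 1, high adenosines numbered 68 and 13, and high cytidines 142 and 23. Near-zero adenosines fell from 8 to 4 at a limit of 0.01, 4 at 10% of the median, 4 away from unmeasured positions and 5 without the first and last 50 nt. Near-zero cytidines fell from 185 to 106 at 0.01, 96 at 10% of the median, 98 without exact zeros and 102 among positions listed in all 3 libraries. Accessible runs numbered 5 at 0.5 and 34 with 1 G or U allowed between members, against 18. Low runs numbered 16 at 0.1 and 4 among positions listed in all 3 libraries, against 7. As means, the levels were 0.324 for adenosines and 0.254 for cytidines, and without zeros the cytidine median was 0.084. Coverage at high G and C was 72.7% over 51 nt. The GCG to CCC ratio was 2.49 at low G and C. With windows of 200 nt the range of window medians was 41.8 against 81.7, and the highest and lowest then began at 401 and 1. The highest window also moved, to 801, away from unmeasured positions and by accessible share, and the lowest to 1 by accessible share and among positions listed in all 3 libraries.

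Loop minus stem shares of accessible cytidines, main value -4.60 percentage points, reversed to 0.243 among positions listed in all 3 libraries and to 39.0 with Watson-Crick stems. For adenosines the difference was 47.4 with stems of at least 8 pairs (29 adenosines) and 5.77 with Watson-Crick stems (46), against 22.9 (130). Unpaired minus paired cytidine shares were 10.5 with a folding window of 100 nt and 18.8 with a limit of 0.5 for both classes, against 40.8. With stems of at least 5 pairs, the last adenosine was accessible in 100% of 4 GNAA or GNGA loops. Other causes of these moves were not tested. No paired analysis was possible because there is 1 library. The unknown read depth limits the reading of zeros and of G and C rich stretches.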
